A study of Canis lupus familiaris with 4 samples.

Results

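The regions described here are the accessible sites of MDCKII chromatin that lie where such sites are packed most closely. Each peak of the deposited table was assigned by its midpoint to a fixed window of 1 Mb counted from position 1 of its chromosome (CanFam3.1), and a window was called dense when it held 80 or more peaks. Chromosomes 1 to 38 were used, except 9 and 20. The rule looks at positions alone and not at counts, and it found 69 dense windows on 22 of 36 chromosomes. They hold 6704 of the 59081 peaks in the table (11.3%), and the remaining 52377 peaks are called the rest of the table. How peaks entered the table was not given in the sources used here, so density here means the density of listed peaks.

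The assay was ATAC-seq, where Tn5 transposase inserts sequencing adapters into open DNA, and the cells were MDCKII (Madine Darby canine kidney type II), a wild-type dog kidney line that forms polarised epithelial monolayers in culture. Cells grown for 7 d until mature, then detached and reseeded for 2 h, gave libraries A and B of the reseeded group. Monolayers grown for 7 d and left in place gave libraries A and B of the mature group. The labels name no separate cultures for A and B, so p-values measure only how far these libraries differ among themselves, and that difference may be technical. Sample names begin with a code that both reseeded libraries share and both mature libraries do not, and a difference that follows this code cannot be told apart from reseeding.

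Open chromatin is not spread evenly along chromosomes. As background, gene-rich stretches hold many promoters and enhancers close together, tend to lie in the interior of the nucleus and are generally active in many cell types, whereas gene-poor stretches more often lie against the nuclear envelope. Promoters that are used in all cells are usually open in any state, and enhancers in close groups often serve genes that define a cell type. By its title the series asks how chromatin lies in nuclei whose envelope is folded, and the dense windows are the crowded end of the layout of open sites. No genes are named for single peaks, since no annotation of this build was used here.

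Total counts in peaks ran from 16906566 to 24015663 in reseeded libraries and from 6253706 to 8759513 in mature libraries. A peak of a dense window had a median of 243.5 and 344 counts in reseeded A and B, against 141 and 104 in mature A and B, and no member had fewer than 3 counts in any library. A floor of 3 counts equals 0.123 to 0.486 CPM (counts scaled to library size with trimmed-mean factors, TMM, the unit used throughout), for counting error only. All 6704 members passed the filter on low counts and were tested.

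Dense windows held 80 to 132 peaks, with a median of 95. They were spread over the genome with some clustering: 24 of them touched another dense window, in 10 runs, the longest being 4 windows on chromosome 18 from 49 to 53 Mb (462 peaks), 3 on chromosome 17 from 58 to 61 Mb (314 peaks) and 3 on chromosome 12 from 0 to 3 Mb (250 peaks). As background, the start of chromosome 12 carries the major histocompatibility genes of the dog. Chromosomes 17 and 5 had the most dense windows, 9 and 8. The windows lay near chromosome ends in part, with 6 in the first 3 Mb of a chromosome and 13 ending within 5 Mb of the last peak. Peaks whose midpoints are up to 1 kb apart may belong to a single open site, and joining them left 5566 sites, 57 to 104 per window, with 80 or more in 33 of the 69. In the dense windows 29.7% of peaks had a neighbour within 1 kb, against 20.02% in the rest of the table, and the median distance to the nearest peak was 1964 bp against 4047 bp.

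After reseeding, accessibility in the dense windows was lower on balance. These peaks received 12.54% of all counts in reseeded A (exact Clopper-Pearson 95% interval 12.52 to 12.56) and 12.51% in reseeded B (12.49 to 12.52), against 15.01% in mature A (14.98 to 15.03) and 15.29% in mature B (15.27 to 15.32). Both reseeded libraries lay below both mature libraries. The means were 12.5% ± 0.024 in reseeded and 15.2% ± 0.203 in mature libraries (SD, n = 2 each), a difference of -0.32 in the log2 ratio of member to other counts. An exact permutation test over the 4 libraries gave p = 0.33 (2-sided), the smallest p that 2 against 2 libraries allow, so the test cannot pass a threshold of 0.05. The intervals cover counting error only, since PCR copies may be counted.

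Peak by peak, the usual change was a mild loss. The median log2 fold (reseeded over mature) was -0.34 in the dense windows and 0.06 in the rest of the table, with quartiles of -0.83 and 0.40 against -0.60 and 1.17. Reseeded A against mature A gave a median of -0.33 for the members, and reseeded B against mature B -0.34. By edgeR's quasi-likelihood test with Benjamini-Hochberg adjustment over all 59076 tested peaks, at an adjusted p under 0.05, 5582 members (83.3%) were called, beside 84.1% of all tested peaks. The share of peaks that changed was thus near the background, and the difference lay in direction: 55.5% of members were called lower, beside 41.8% of all peaks, and 27.8% were called higher, beside 42.3%. A peak called and at least 2-fold higher is termed gained here, and a peak called and at least 2-fold lower is termed lost. Among members 1308 (19.5%) were lost, beside 15.0% of all peaks, and 938 (14.0%) were gained, beside 26.9%. At least 4-fold, 450 members (6.7%) were lost, beside 6.04%, a share close to the background, and 244 (3.6%) were gained, beside 10.1%. The reseeded and mature libraries did not overlap in CPM at 6091 members (90.9%), beside 91.5% of all peaks.

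**Figure D1:**
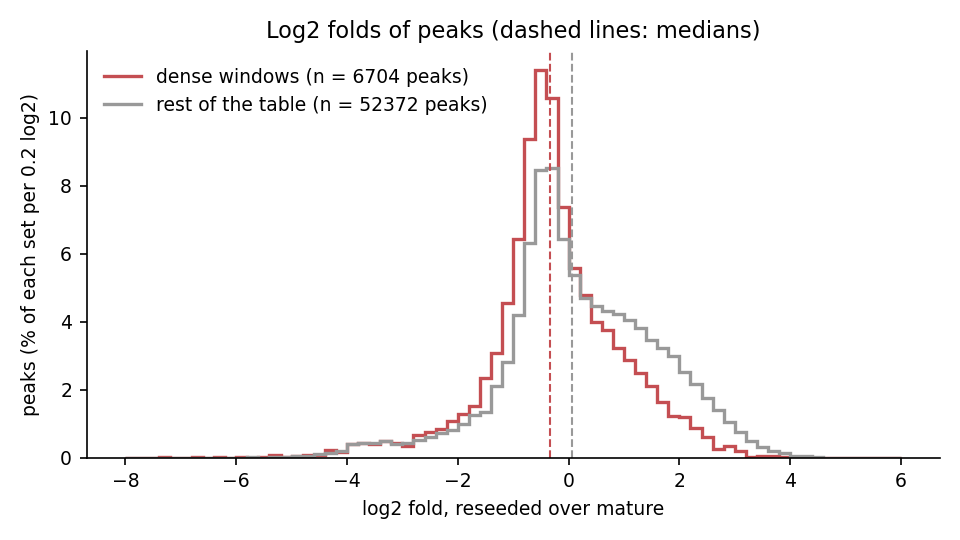
Share of peaks (vertical axis, percent of each set per 0.2 log2) by log2 fold of reseeded over mature cells (horizontal axis), for 6704 peaks of dense windows (red) and 52372 tested peaks of the rest of the table (grey), with dashed lines at the medians. The dense windows have a taller mode just below 0 and a thinner right arm, with medians of -0.34 and 0.06.

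The members stood apart in level more in the mature than in the reseeded state. Median CPM was 14.2 in reseeded A and 14.1 in reseeded B, against 16.4 in mature A and 16.8 in mature B. In the rest of the table the same medians were 12.7 and 12.6 in reseeded A and B, against 11.8 and 12.1 in mature A and B. In all 4 libraries the median was thus higher in dense windows than outside, by more in mature than in reseeded cells. Only 8.4% of members were under 5 CPM in mature cells, against 21.1% of the rest of the table. In reseeded cells 8.8% of members and 8.0% of the rest were under this level. At the upper end, 16.1% of members exceeded 30 CPM in reseeded and 23.0% in mature cells. The 244 members gained by at least 4-fold had a median of 18.6 CPM in reseeded and 3.34 CPM in mature cells.

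Mild decreases at strong peaks gave nearly as much of the fall in signal as all larger decreases together. Among members, 2412 peaks (35.98%) were called lower by under 2-fold, with a median of 17.5 CPM in reseeded and 25.7 CPM in mature cells, and their CPM summed over the class made up 48.7% of the total fall at peaks called lower. The 858 peaks that were 2 to 4-fold lower gave 30.8% of it and the 450 that were at least 4-fold lower 20.5%. In the rest of the table the mild class gave 49.1%, so this division is not one in which the dense windows stand out. Peaks with large losses were closely packed: 41.1% of the 450 had a neighbour within 1 kb, against 10.7% of the 244 with at least 4-fold gains. In the rest of the table these shares were 26.6% and 8.03%, a contrast in the same direction.

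Along the whole range of density the share of gained peaks went down at each step, and the share of lost peaks went up from windows of 20 peaks on. On the same 36 chromosomes, gained peaks made up 38.2% in windows of 1 to 9 peaks, 35.9% at 10 to 19, 33.8% at 20 to 39, 27.3% at 40 to 59, 21.6% at 60 to 79 and 14.0% at 80 or more. Lost peaks made up 12.0%, 11.6%, 12.3%, 14.1%, 17.4% and 19.5%. The dense windows were the only class of the 6 in which lost peaks outnumbered gained ones. The classes share libraries and scaling, and the order is a description with no test.

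**Figure D2:**
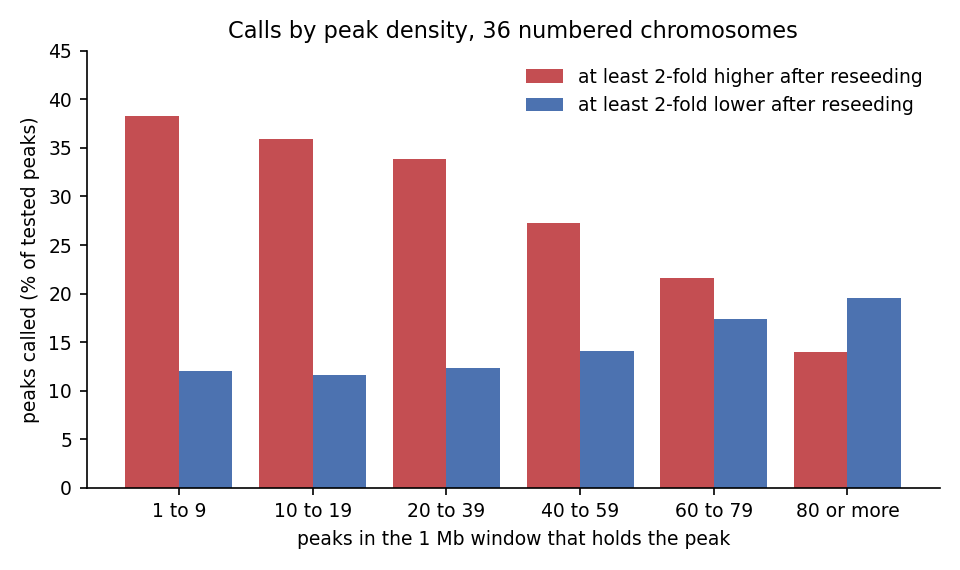
Share of tested peaks (vertical axis, percent) gained (red) or lost (blue), each called and by at least 2-fold, by the number of peaks in the 1 Mb window (horizontal axis), chromosomes 1 to 38 without 9 and 20. Gains go down from 38.2% to 14.0% with density and losses go up to 19.5%.

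Closeness of peaks and their level each moved with the result, so members and other peaks were also set side by side at like values. Among peaks with a neighbour within 1 kb, 24.4% of members and 18.8% of other peaks were lost, and 5.9% of members and 14.99% of other peaks were gained. Among peaks with no neighbour within 10 kb, 14.9% of members and 11.5% of other peaks were lost, and 23.3% of members and 36.4% of other peaks were gained. In each of 5 classes of distance the members' median log2 fold was lower, at -0.51 for members against -0.33 for other peaks in the closest class and at -0.22 for members against 0.38 for other peaks in the most isolated. Likewise, when all tested peaks were divided by mean CPM into 5 groups of like size, the members had in each a lower median, a smaller share gained and a larger share lost. In the strongest group the median log2 fold was -0.42 for members and -0.31 for other peaks, and in the weakest it was 0.53 for members and 1.14 for other peaks. Members were spread unequally over these groups, with 28.1% in the strongest and 12.0% in the weakest. The part of level and closeness in the result was not tested.

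Set against other peaks of the same chromosome, the members had the lower median log2 fold on 17 of 22 chromosomes. The difference (dense windows minus other peaks) had a median of -0.39 and ran from -1.12 on chromosome 8 to 0.09 on chromosome 21. The 5 chromosomes on which dense windows were not lower, 4, 14, 21, 24 and 26, differed by at most 0.09. Windows that touched a dense window but were not dense themselves took a middle place. Over 100 such windows (median 48 peaks), 20.9% of peaks were gained and 16.0% lost, with a median log2 fold of -0.17.

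Summed over each window, 67 of the 69 dense windows were called, beside 86.9% of 1803 tested windows. Of the 69, 64 were called lower (92.8%, beside 42.6% of all windows), 3 were called higher (4.3%, beside 44.3%) and 2 were not called, by edgeR's quasi-likelihood test with Benjamini-Hochberg adjustment over all windows of at least 5 peaks. In all 69 (beside 93.4% of all windows) the reseeded and mature libraries did not overlap in CPM. Window log2 folds ran from -1.61 to 0.33 with a median of -0.33. Of the 69 dense windows 2, on chromosomes 7 and 8, changed by at least 2-fold, beside 69 of all 1803 tested windows. These counts are relative to the typical window. With library size alone 53 were lower and 6 higher, and the median of all windows was 0.13 in place of 0.02. Offsets that follow window level left 24 lower and 33 higher, with a median log2 fold of 0.03 over the dense windows. Window level and peak number rank windows almost alike (Spearman's rho 0.97 over 1803 windows, with counts in common). Change that goes with level therefore cannot be told apart here from change that goes with density, and these offsets take out both. Peak by peak the same kind of offset gave a median of -0.27 for members and -0.11 for all peaks. Without it these medians were -0.34 and -0.009, so the offsets brought them closer together.

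**Figure D3:**
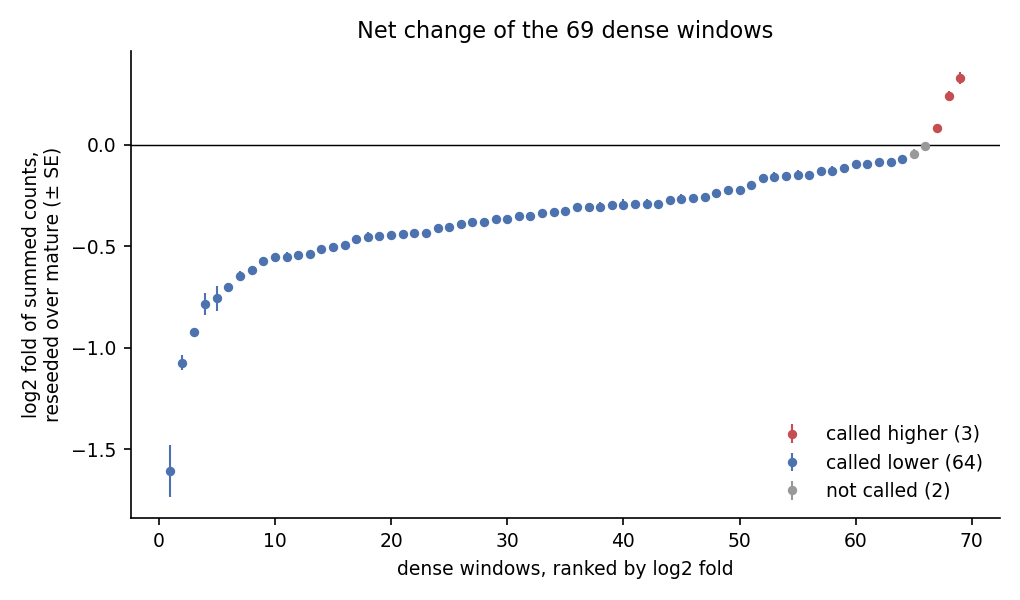
Log2 fold of summed counts (vertical axis, reseeded over mature, bars are ± SE) of the 69 dense windows, ranked from lowest to highest (horizontal axis), with 3 windows called higher (red), 64 called lower (blue) and 2 not called (grey). Nearly all lie between -0.8 and 0, and the window of rank 1 stands apart at -1.61.

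The 5 windows with the most peaks were each called lower. Chromosome 1 from 110 to 111 Mb, with 132 peaks, had 2188 and 2162 CPM in reseeded A and B, against 3330 and 3350 CPM in mature A and B, for a log2 fold of -0.62 ± 0.02 (SE) at an adjusted p of 5.54e-07. Chromosome 5 from 32 to 33 Mb, also with 132 peaks, had 2539 and 2552 CPM in reseeded A and B, against 3769 and 3797 CPM in mature A and B, a log2 fold of -0.57 (SE 0.02). In both windows the libraries of a group lay close together and the groups were far apart. Chromosome 17 from 60 to 61 Mb (129 peaks) had 2885 and 2853 CPM in reseeded A and B, against 3622 and 3703 CPM in mature A and B, a log2 fold of -0.35. Chromosome 18 from 51 to 52 Mb (127 peaks) had 2355 and 2384 CPM in reseeded A and B, against 3023 and 3084 CPM in mature A and B, a log2 fold of -0.37. These 2 windows turned to 0.16 and 0.09 with offsets that follow window level. With the same offsets the windows of chromosomes 1 and 5 came to -0.16 and -0.07. The chromosome 13 window, given next, came to -0.27. Chromosome 13 from 37 to 38 Mb (123 peaks) had 1936 and 1949 CPM in reseeded A and B, against 3100 and 3217 CPM in mature A and B, a log2 fold of -0.70. The chromosome 13 window was nearly one-directional: 31 of its peaks were lost, 1 was gained, and all 18 of its stretches of 50 kb holding peaks had a lower summed CPM. In this window 76 of the 123 peaks (61.8%) differed from the others of the window, beside 75.9% of members and 80.2% of all tested peaks. Its stretch of largest fall had a log2 ratio of -1.98, against -0.53 over the remaining peaks.

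The 5 lowest windows held many lost peaks, in part in close groups. Chromosome 7 from 80 to 81 Mb, with 86 peaks, had 2537 and 2559 CPM in reseeded A and B, against 6565 and 8960 CPM in mature A and B, for a log2 fold of -1.61 ± 0.13 (SE) at an adjusted p of 1.78e-05. Mature B was far above mature A here, and both were far above the reseeded libraries. Chromosome 8 from 72 to 73 Mb (84 peaks) had 939 and 928 CPM in reseeded A and B, against 1885 and 2047 CPM in mature A and B, a log2 fold of -1.07 (SE 0.04), and was lower in each of its 17 stretches of 50 kb. Chromosome 27 from 2 to 3 Mb (103 peaks), near which lie, as background, the type II keratin genes of epithelial intermediate filaments, had 1448 CPM in both reseeded libraries, against 2717 and 2777 CPM in mature A and B, a log2 fold of -0.92 (SE 0.02). Next came chromosome 18 from 49 to 50 Mb (106 peaks) with -0.78 (SE 0.05) and chromosome 38 from 21 to 22 Mb (94 peaks) with -0.76 (SE 0.06). In these 5 windows 31 to 49 peaks (33.0% to 53.6%) were lost, beside 19.5% of members and 15.0% of all tested peaks. Gained were 1 to 11 (1.2% to 11.7%), beside 14.0% of members and 26.9% of all tested peaks. These windows were chosen by their low folds, so many lost peaks were largely fixed by the choice. Over their peaks the median log2 ratio of mature B to A was 0.30, 0.11, 0.02, 0.18 and 0.15 from the lowest fold up, against a median of 0.04 over the 69 windows. A part of this difference between mature libraries in the folds was not tested.

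The dense window of chromosome 7 held the peaks with the highest mean CPM of all tested peaks. Whether sequence present in several copies adds to the counts at these positions could not be checked without a genome of this build, so their CPM, ranks and shares are those of the table and may not be those of single sites. In the last stretch of its dense window, from 80950001 on, 27 peaks held 72.5% of the mature CPM of the window. They summed to 1681 and 1709 CPM in reseeded A and B, against 4615 and 6246 CPM in mature A and B, and 26 of them were lost. Of the 27, 3 adjoining peaks had the 3 highest mean CPM of all 59076 tested peaks. The first, chr7:80967949-80968449, had 284.9 and 326.8 CPM in reseeded A and B, against 738.4 and 928.6 CPM in mature A and B, for a log2 fold of -1.44 ± 0.08 (SE) at an adjusted p of 3.49e-17. Its neighbours from 80968671 and from 80969324 had log2 folds of -1.47 and -1.43. Without the last stretch, the other 59 peaks of the window summed to 900.3 and 891.1 CPM in reseeded A and B, against 1792 and 2330 CPM in mature A and B, a log2 ratio of means of -1.20. The median log2 fold of these 59 peaks was -0.47, closer to 0 than the ratio of their sums. The mature libraries differed in both portions, and the median over peaks of log2 mature B over A was 0.59 in the last stretch and 0.17 elsewhere.

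The 3 windows called higher were mild in net change. Of their peaks 27.7% to 36.4% were gained, beside 14.0% of members and 26.9% of all tested peaks. Chromosome 5 from 61 to 62 Mb (81 peaks) had 1320 and 1305 CPM in reseeded A and B, against 1012 and 1081 CPM in mature A and B, for a log2 fold of 0.33 ± 0.03 (SE) at an adjusted p of 3.2e-05, with 29 peaks gained and 12 lost. Chromosome 14 from 55 to 56 Mb (99 peaks) had 1937 and 1888 CPM in reseeded A and B, against 1598 and 1638 CPM in mature A and B, a log2 fold of 0.24 (SE 0.02), with 36 gained and 9 lost. Chromosome 4 from 39 to 40 Mb (83 peaks) had a log2 fold of 0.08 ± 0.02 (SE) at an adjusted p of 0.00321, and was not called without mature A (0.07, adjusted p = 0.0629). The chromosome 4 window had 23 peaks gained (27.7%) and 18 lost (21.7%), beside 15.0% lost among all tested peaks. All 3 windows were among the 9 of the set with the lowest mature level, at 1046 to 1618 CPM, where the mature level also enters the fold. The next windows down, chromosome 21 from 35 to 36 Mb and chromosome 17 from 39 to 40 Mb, had log2 folds of -0.07 and -0.08. With library size alone these became 0.05 and 0.03, with offsets that follow window level 0.19 and 0.25, and without reseeded B the chromosome 21 window was not called (-0.06, adjusted p = 0.0982). Not called at all were chromosome 10 from 25 to 26 Mb (log2 fold -0.05, SE 0.02, adjusted p = 0.111) and chromosome 11 from 22 to 23 Mb (-0.01, SE 0.02, adjusted p = 0.766).

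**Figure D4:**
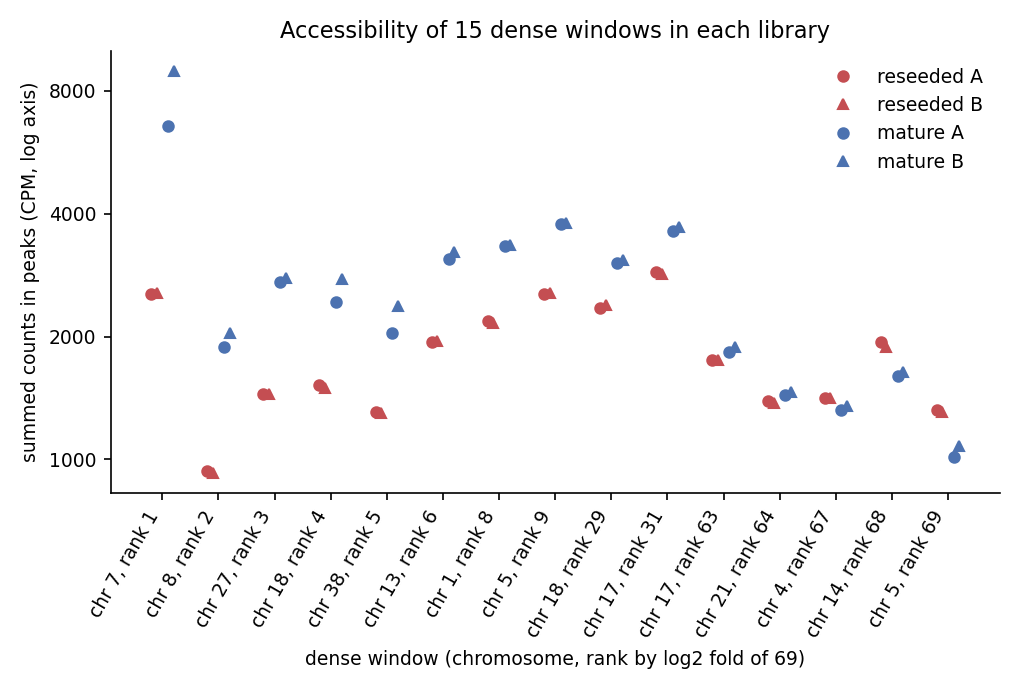
Summed counts in peaks (vertical axis, CPM on a log axis) of 15 dense windows (horizontal axis, by chromosome and rank of log2 fold), with reseeded A and B (red) left of mature A and B (blue), circles for A and triangles for B. Groups are apart in each window and the mature libraries differ most in the window of rank 1, at 6565 and 8960 CPM.

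Dense windows were mixed inside. Each of the 69 held gained and lost peaks, with 0.8% to 36.4% of peaks gained and 2.1% to 53.6% lost. Lost peaks outnumbered gained ones in 45 windows, the reverse held in 22, and the counts were equal in 2. Differences between window means made up 8.2% of the variance of members' log2 folds. These counts and this share were not compared with other windows, so they do not show that dense windows were more mixed. When each peak was tested against the other peaks of its own window (edgeR's diffSpliceDGE, Benjamini-Hochberg over all peaks), 5091 members (75.9%) differed from their window, beside 80.2% of all tested peaks. At least 2-fold above their window were 18.1% of members, beside 24.8%, and at least 2-fold below were 13.1%, beside 14.4%. The members thus differed from their surroundings at a share not above the background, and the absolute difference from the window had a median of 0.58 on the log2 scale, against 0.78 in the rest of the table.

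The chromosome 35 window from 24 to 25 Mb was the quietest of the set by calls. It had 1914 and 1897 CPM in reseeded A and B, against 2034 and 2010 CPM in mature A and B. Its log2 fold was -0.09 (SE 0.02). Of its 96 peaks 57 (59.4%) were called, beside 83.3% of members and 84.1% of all tested peaks. Gained were 10 (10.4%), beside 14.0% of members and 26.9% of all tested peaks. Lost were 2 (2.1%), beside 19.5% of members and 15.0% of all tested peaks. In the 3 touching windows at the start of chromosome 12, where the major histocompatibility genes lie, log2 folds were -0.22, -0.38 and -0.44 in order of position. Of their 250 peaks 28 were gained and 29 lost. In the same order 15.1%, 9.6% and 8.6% were gained, beside 14.0% of members and 26.9% of all tested peaks. Lost were 8.1%, 15.7% and 11.1%, beside 19.5% of members and 15.0% of all tested peaks. On chromosome 18, the 4 touching windows from 49 to 53 Mb had log2 folds of -0.78, -0.34, -0.37 and -0.54, each called lower.

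**Figure D5:**
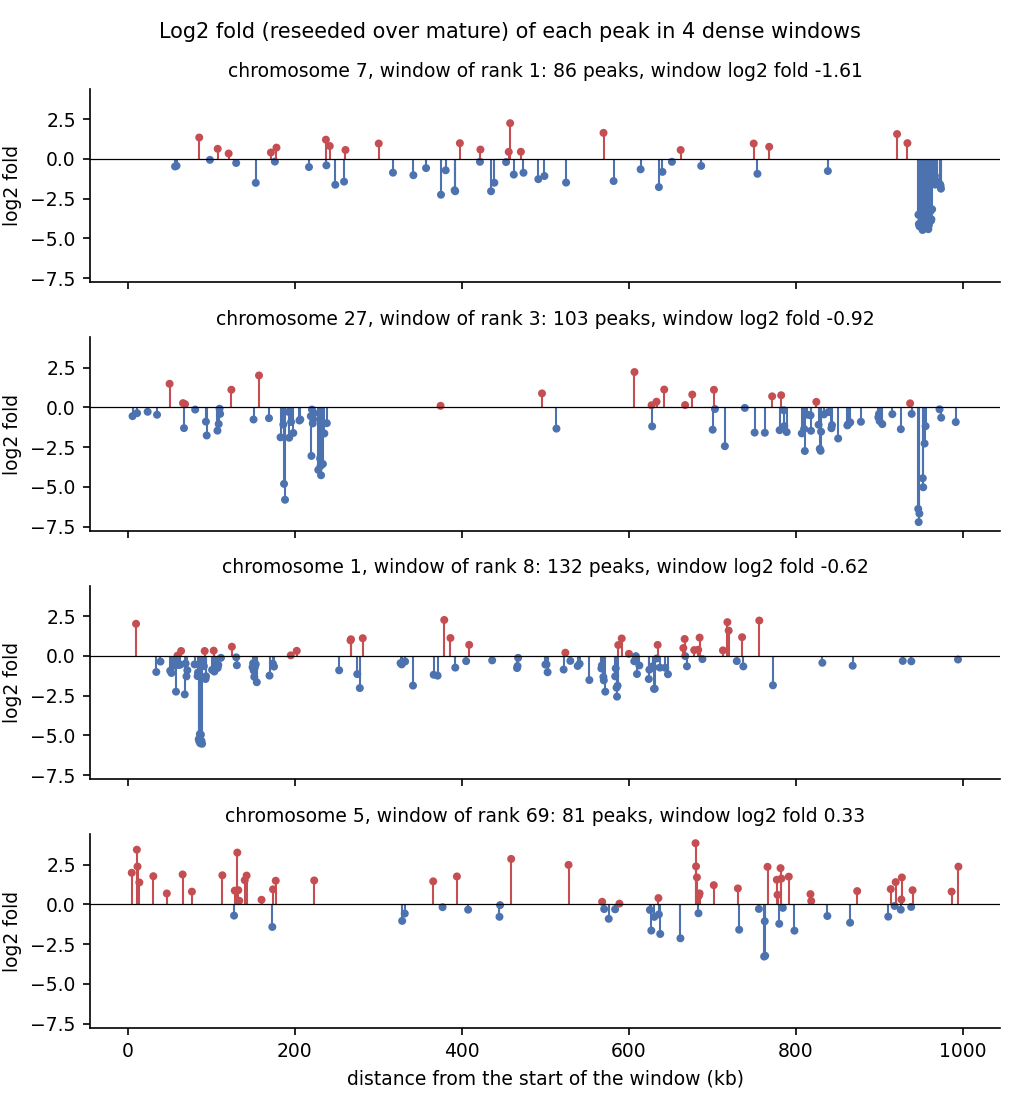
Log2 fold (vertical axes, reseeded over mature) of each peak against its distance from the start of the window (horizontal axis, kb) in 4 dense windows, red above 0 and blue below. Peaks of both directions are interspersed, and the deepest losses sit in narrow groups in the windows of chromosomes 7, 27 and 1.

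The 6 largest gains among members were at peaks that were weak in mature cells. The peak chr5:61679865-61680365, in the window with the highest fold and 586 bp from its nearest neighbour, had 32.0 and 34.3 CPM in reseeded A and B, against 2.09 and 2.59 CPM in mature A and B, for a log2 fold of 3.85 ± 0.16 (SE) at an adjusted p of 1.76e-20. The peak chr17:60318121-60318621 had 42.0 and 39.9 CPM in reseeded A and B, against 2.90 and 3.73 CPM in mature A and B, a log2 fold of 3.65 (SE 0.14). At chr18:46922828-46923328 there were 39.97 and 41.59 CPM in reseeded A and B, against 2.32 and 4.70 CPM in mature A and B, a log2 fold of 3.62 (SE 0.15). The chromosome 18 peak sits in a window called lower, where 7 of the 22 other members within 50 kb were lost and 0 gained. Over this whole window 33 of 81 peaks (40.7%) were lost and 4 (4.9%) gained. Both chr26:5916323-5916823 and chr14:55995847-55996347 had log2 folds of 3.58, with 21.8 to 32.2 CPM in reseeded and 1.39 to 3.40 CPM in mature libraries. At chr1:107237488-107237988 there were 23.2 and 24.2 CPM in reseeded A and B, against 1.04 and 2.92 CPM in mature A and B. Its log2 fold of 3.69 (SE 0.20) rested on 27 mature counts in all and moved to 3.02 when mature A was left out and to 4.49 when mature B was. These 6 were chosen by fold among called members, so a place far above their windows was largely fixed by the choice. They stood above the other peaks of their windows by 3.26 to 4.20 on the log2 scale.

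The 6 largest losses lay in the dense windows of chromosomes 27 and 1 described above. The peak chr27:2188096-2188596 had 0.525 and 0.287 CPM in reseeded A and B, against 23.0 and 21.2 CPM in mature A and B, for a log2 fold of -5.81 ± 0.25 (SE) at an adjusted p of 2.18e-20. Further along the same window, 3 adjoining peaks between 2946587 and 2948488 had log2 folds of -7.22 to -6.39 and 3 to 8 counts in each reseeded library. The lowest of these counts were at chr27:2947988-2948488, whose ratio of scaled pooled counts was 0.00934 (exact 95% interval 0.00372 to 0.0195, counting error only). On chromosome 1, chr1:110086584-110087084 had 0.817 and 0.697 CPM in reseeded A and B, against 35.8 and 31.9 CPM in mature A and B, a log2 fold of -5.50 (SE 0.17), and chr1:110088678-110089178 had a log2 fold of -5.53 (SE 0.30). Both belong to a site of 9 peaks over 5856 bp, all of them lost, with 25.8 CPM in reseeded and 238.0 CPM in mature cells. Within 50 kb of the chromosome 1 peaks, 14 of 38 other members were lost and 0 gained. Over their whole window 39 of 132 peaks (29.5%) were lost and 12 (9.1%) gained.

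In 8 places, runs of 5 or more peaks, each within 10 kb of the next, were lost throughout by at least 4-fold, and these held 61 members, 13.6% of the members at least 4-fold lower. The rest of the table had 32 such runs with 277 peaks, 8.89% of its peaks at least 4-fold lower, and the difference was not tested. A run needs close peaks, and dense windows were chosen for close packing. The median distance to the nearest peak was 1964 bp for members and 4047 bp for other peaks. The membership rule itself thus favours runs among members, so these shares cannot show whether losses group more there. On chromosome 7 the group from 80946834 to 80963745 held 21 peaks, with a median of 3.85 and 4.39 CPM in reseeded A and B, against 49.1 and 75 CPM in mature A and B. Chromosome 18 had 3 such groups between 49084133 and 49148991, with 17 peaks, chromosome 27 had 2, chromosome 1 had 1 with 7 peaks and chromosome 8 had 1 with 5. At 5 of the 8, on chromosomes 7, 18 and 8, mature B exceeded mature A with a median log2 ratio over 0.5. The group on chromosome 1 from 110084747 to 110089178 had mature libraries close to each other, at 27.8 and 29.97 CPM, against 0.817 and 0.574 CPM in reseeded A and B. No unbroken group of 5 peaks was at least 4-fold higher.

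Around the threshold, the 9 windows just inside, with 80 to 82 peaks, had window log2 folds of -0.65 to 0.33 with a median of -0.29, and the 11 windows just outside, with 77 to 79 peaks, had -0.66 to 0.21 with a median of -0.26. Within the 69, windows with more peaks tended to have lower folds (Spearman's rho -0.29), as did windows with more peaks within 1 kb (-0.38). Windows with a higher median mature CPM had lower folds as well (-0.68), where the mature level enters both measures. These are descriptions over 69 windows that share all 4 libraries.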

How the data were processed

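The authors deposited raw counts for each peak and library, not normalized. Bowtie2, MACS2 and the build CanFam3.1 are named, per the submitters' processing notes. For versions, settings, the selection of peaks and the treatment of duplicates, information was not given in the sources used here. Starts were printed 1-based.

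Members, windows and named items were chosen with earlier results of these data known. R 4.3.3 and edgeR 4.0.16 were used on the counts: filterByExpr (59076 of 59081 peaks kept), TMM, and the quasi-likelihood test without a block, adjusted over all peaks. Counts summed in 1 Mb windows of at least 5 peaks (1803) were tested likewise with their own TMM factors, so window CPM and peak CPM differ slightly in scale. SEs came from the fold and its F statistic. Scripts were tested on simulated data. Alternatives used DESeq2 1.42.0, limma 3.58.1, other scalings, filters and membership rules, and each library left out. Letters A and B did not show pairing: differences between A and B correlated across peaks at 0.03 between the groups. Windows named in full were the 5 with most peaks and the 5 highest and the 5 lowest called folds. Peaks named were the 6 largest gains and the 6 largest losses among called members whose counts averaged 50 or more and whose groups did not overlap, and the 3 strongest. The quietest window, touching runs and joined sites were named after their values were seen. Figures used matplotlib 3.10.9.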

Additional observations from a re-analysis of the deposited data

How the results depend on the processing

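Of 145 alternatives for the main shares, medians and counts, 120 left the value within 1.5 times (counts and shares of peaks) or, by a narrower bound, within 1 SD of the libraries (median log2 fold and share of counts). The median log2 fold of members, -0.34, was negative in each: -0.30 by library size alone and by upper-quartile factors, -0.27 by loess offsets, -0.37 thinned to the shallowest library and -0.35 to -0.33 with a library left out. It was -0.31 for windows of 70 or more peaks, -0.37 for 90 or more, -0.38 with all numbered chromosomes and X, -0.30 in windows of 500 kb with 40 or more peaks, -0.29 with 1 peak per site and -0.33 without the 6 windows whose median log2 ratio of mature B to A was over 0.1 (chosen after the data were seen). Dense windows called higher and lower were 3 and 64. They were 6 and 53 by library size alone, 33 and 24 by loess offsets, 8 and 98 of 113 at 70 or more peaks, 1 and 38 of 40 at 90 or more, 30 and 167 of 211 at 500 kb, and 1 higher of 72 on a grid shifted by 500 kb. With a library left out they were 2 to 3 and 63 to 65. The log2 difference in share of counts, -0.32, was -0.29 at 70 or more peaks and -0.28 on the shifted grid. With a replicate block 13.9% of members were gained and 19.5% lost, and the windows stayed at 3 and 64. It ended no call of a dense window or a named peak. Named windows reversed by loess offsets were chromosome 17 from 60 Mb (0.16), chromosome 18 from 51 Mb (0.092), chromosome 17 from 39 Mb (0.25) and chromosome 21 from 35 Mb (0.19), and the last 2 also by library size alone (0.032 and 0.047). The loess offsets follow window level, which ranks windows almost as peak number does. By library size alone the median of all windows was 0.13, above both reversed values. All 15 named peaks kept direction and call. Depth limits small folds, as mature totals were lowest.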

Other observations

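The 28 windows of 80 or more peaks on chromosomes 9 and 20, which the membership rule leaves out, held 2775 peaks, with 10.99% gained and 21.3% lost (called and by at least 2-fold) and a median log2 fold of -0.45. All 28 were called lower by edgeR's quasi-likelihood test, with window log2 folds of -0.93 to -0.05. No test of these against the 69 dense windows was run.

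Large joined sites leaned to loss in dense windows and elsewhere. In sites of 4 or more peaks up to 1 kb apart, 42.4% of 262 members were lost and 0.8% gained, against 44.2% and 4.8% of 600 peaks in the rest of the table. Peaks standing alone had 17.4% lost and 17.4% gained among 4716 members, against 13.4% and 31.9% of 41888 others. The site with the most peaks, on chromosome 18 from 49134487 to 49145012, held 14 peaks, 10 of them lost, with 243.9 CPM in reseeded and 413.8 CPM in mature cells, and a median log2 ratio of mature B to A of 0.41. On chromosome 38 a site of 9 peaks from 21102854 to 21108992 had 86.3 CPM in reseeded and 385.8 CPM in mature cells, with a ratio of 0.46.

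Neighbouring members up to 1 kb apart had log2 folds of one sign in 75.2% of 1138 pairs, against 72.3% of 5673 pairs in the rest of the table. At 5 to 10 kb apart the shares were 56.2% of 1159 pairs of members and 58.2% of 7554 other pairs. One peak was gained and the other lost in 13 of the closest pairs of members and 102 of the closest other pairs.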
